A study of Mus musculus with 11 samples.

Results

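miR-143 and miR-145 were followed across 8 normal mammary glands and 3 mammary tumors of the mouse. Both miRNAs were among the brightest on every gland array, and the difference between their log2 signals hardly varied from gland to gland. On the tumor arrays they parted: miR-145 was dim but well above background on all 3 arrays, whereas miR-143 was well above background on none. The pair was taken by name, as the spots annotated mmu-miR-143 and mmu-miR-145 among the spots for mouse miRNAs, and makes up 2 of 334 miRNAs and 8 of 1336 spots, with 4 spots for each miRNA.

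The genes of miR-143 and miR-145 are neighbors, and both mature miRNAs are cut from a shared primary transcript. In the RefSeq gene table of the mouse (GRCm38.p6), Mir143 and Mir145a lie on the same chromosome with 0 genes listed between them, and the long non-coding RNA gene Carmn spans both. The cluster is best known from smooth muscle, where serum response factor and its coactivator myocardin drive its transcription and where it favors the contractile state. In the mammary gland it is therefore generally ascribed to stromal cells, vessel walls and the contractile myoepithelial layer and not to the milk-producing luminal cells. The arrays measured RNA of whole tissue, in which fewer cells of a type and less RNA per cell cannot be told apart.

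The glands came from female mice in late pregnancy of 3 strain backgrounds, 2 arrays of FVB, 3 of Balb/C and 3 of the mixed background labelled FVB129B6, none of them labelled as carrying a transgene. The 3 tumors were primary mammary tumors of female C3(1)/Tag mice, which are of the FVB strain and carry the T/t-antigens of simian virus 40 under the C3(1) promoter, active in the ductal epithelium of the mammary gland. Total RNA that retained small RNAs was labelled with the green dye Hy3 and hybridised to a custom miRNA array. The labels do not state the ages of the mice or say that the gland arrays came from separate animals, and the titles of Balb/C replicates 2 and 3 could name both sides of 1 mouse, so p-values measure the spread between these arrays.

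All levels below are log2 green-channel signals minus the median of the mouse spots on the same array, so that 0 is the array median, averaged over the 4 spots of a miRNA. The level of a miRNA depends on how its probe binds, so the levels of miR-143 and miR-145 do not say which was more abundant, and their difference was compared only between arrays. The scanner program calls each spot well above background or not, and a miRNA is described with the same words where at least 50% of its spots passed. Between 246 and 262 of 334 miRNAs did so on the Balb/C and FVB129B6 arrays, 229 and 209 on the FVB arrays, and 38, 15 and 64 on the tumor arrays. The gland arrays shared 1 slide and the tumor arrays another, which was read with an older version of the scanner program, so slide and tissue cannot be told apart in any comparison of tumors with glands. The FVB arrays lay in a column of their own, and their median spot intensities of 245.5 and 188.5 were below the 508 to 671 of the other glands. Strain therefore cannot be told apart from column and signal strength in any comparison with FVB. No array repeated another, with a highest correlation between 2 arrays of 0.993.

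On the gland arrays miR-143 had levels of 8.81 and 9.42 in FVB, of 8.54, 8.32 and 8.75 in Balb/C, and of 8.51, 8.36 and 8.61 in FVB129B6. The means were 9.12 ± 0.43 (SD, n = 2), 8.54 ± 0.22 (SD, n = 3) and 8.50 ± 0.13 (SD, n = 3). Balb/C and FVB129B6 overlapped, and both FVB arrays lay above every other gland array. The level of miR-145 was 8.02 and 8.71 in FVB, 7.69, 7.49 and 7.92 in Balb/C, and 7.58, 7.62 and 7.82 in FVB129B6, with means of 8.36 ± 0.49, 7.70 ± 0.22 and 7.67 ± 0.13. The order of the strains was thus that of miR-143, with both FVB arrays again above the rest and the other 2 strains overlapping. All 32 gland spots of each miRNA were well above background, and none was saturated or marked as an outlier. Within an array the 4 spots agreed closely, with SDs of 0.028 to 0.062 for miR-143 and 0.035 to 0.11 for miR-145 on the log2 scale, well under the SD over the 8 glands of 0.35 and 0.39. The raw pixel signals of the gland spots ran from 18392.5 to 50069.9 for miR-143 and from 10397 to 27164.3 for miR-145, against local backgrounds of 49 to 56. Many of these bright spots were taken by the program from a second, less sensitive scan and scaled up, 29 of 32 for miR-143 and 10 of 32 for miR-145, and whether this bears on their levels was not tested.

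**Figure D1:**
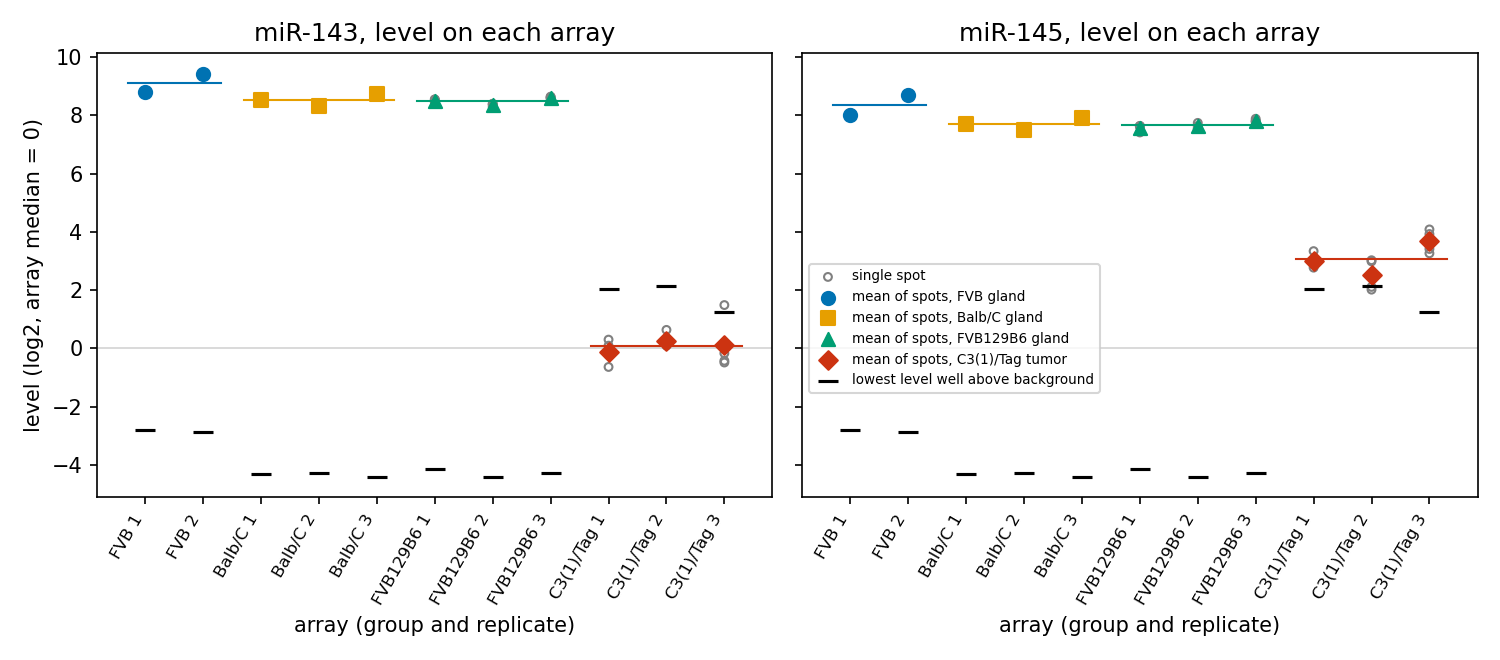
Level of miR-143 (left) and miR-145 (right) on each of the 11 arrays, in log2 with the array median at 0. Open circles are single spots, filled symbols their mean by group, horizontal lines the group means, and black dashes the lowest level of any miRNA well above background on that array. miR-143 sits at 8.32 to 9.42 on the gland arrays and below the dash on all 3 tumor arrays, whereas miR-145 sits at 7.49 to 8.71 on the gland arrays and above the dash on the tumor arrays.

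The tumor arrays gave miR-143 levels of -0.12, 0.26 and 0.099, which is the middle of these arrays. None of its 12 tumor spots was well above background. The lowest levels of any miRNA well above background on those arrays were 2.02, 2.13 and 1.23. The level of miR-143 lay under this detection limit on each, and only a bound can be given for it there. The limit is not strict, since a single spot of miR-143 on tumor replicate 3, at 1.49, was above 1.23 and not called. The level of miR-145 was 2.99, 2.53 and 3.67 on the same arrays, above that limit on each, with 4, 2 and 4 of 4 spots well above background. Tumors and glands did not overlap for either miRNA, and the lowest gland level of miR-145, 7.49, was far above its highest tumor level.

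The tumor signals of miR-145 were weak in absolute terms. Its 12 spots had raw pixel signals of 99 to 169 over local backgrounds of 48 to 52, and those of miR-143 had 88 to 108 over 49 to 53.5. Averaged per array and corrected for background by the scanner program, miR-145 was left with 29.7, 12.6 and 49.1 and miR-143 with -0.36, -0.71 and 3.04 pixel units. Tumor replicate 2 was the weakest for miR-145, and there its spots were split between 604 and 566, not called, and 1140 and 1110, called. The program's dye normalization then multiplied the green signals of the tumor arrays by 31.8 to 65.4, and those of the gland arrays by 5.18 to 6.77. The processed intensities of miR-145 were therefore 566 to 2120 in tumors and 60600 to 144000 in glands.

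By rank of level among the 334 miRNAs of an array, miR-143 was in places 4 and 3 in FVB, 3, 5 and 1 in Balb/C, and 2, 2 and 1 in FVB129B6. It was the brightest of all on Balb/C replicate 3 and FVB129B6 replicate 3. miR-145 was in places 12 and 8 in FVB, 10, 15 and 8 in Balb/C, and in place 8 on all 3 FVB129B6 arrays. On the tumor arrays miR-143 dropped to places 257, 120 and 171, among signals not told from background, while miR-145 took places 26, 18 and 23. A rank does not change when a whole array is scaled by a constant. miR-145 was 1 of 15 miRNAs well above background on all 3 tumor arrays, a set that also holds let-7a, let-7b, let-7c and let-7d of the let-7 family and miR-205 and miR-221 of the basal and myoepithelial list below, while 268 of 334 were so on no tumor array.

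**Figure D2:**
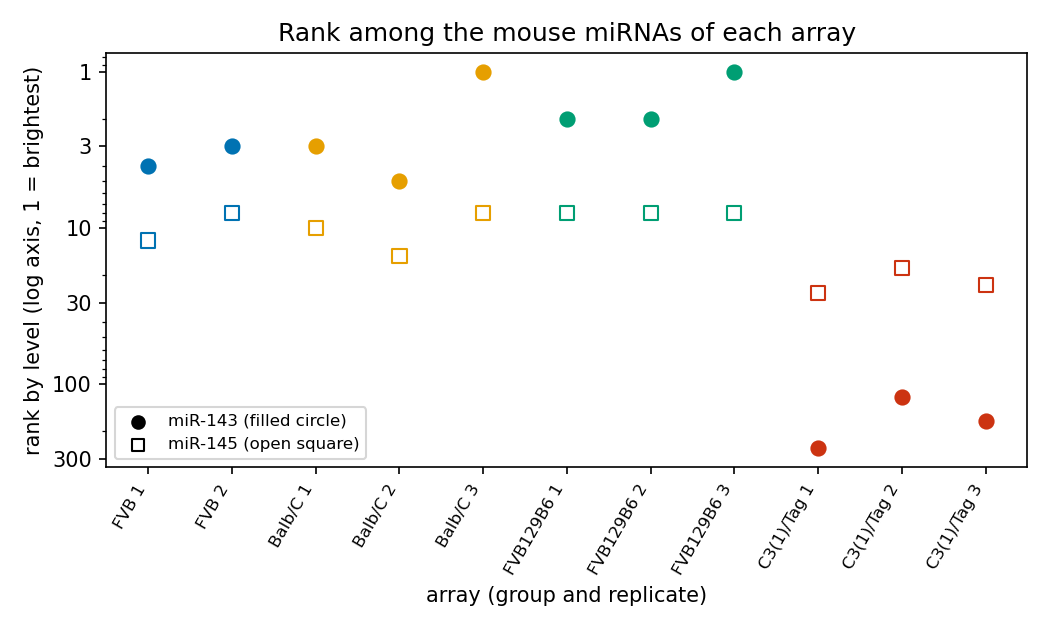
Rank of miR-143 (filled circles) and miR-145 (open squares) by level among the 334 mouse miRNAs of each array, on a log axis with 1, the brightest, at the top, colored by group. On the gland arrays miR-143 is in places 1 to 5 and miR-145 in places 8 to 15. On the tumor arrays miR-145 is in places 18 to 26 and miR-143 in places 120 to 257.

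The first comparison asked whether strain background alone moved the pair, since the tumor models of the study were bred on different backgrounds. No difference between strains passed the test for either miRNA, although both FVB arrays lay above all others. In the limma fit over the 8 gland arrays, miR-143 was lower in Balb/C than in FVB by a log2 difference of -0.58 (SE 0.23, 95% interval -1.12 to -0.041, adjusted p = 0.0859), and in FVB129B6 by -0.62 (SE 0.23, -1.16 to -0.082, adjusted p = 0.0636). For miR-145 the limma differences were -0.66 (SE 0.24, -1.23 to -0.094, adjusted p = 0.0668) and -0.69 (SE 0.24, -1.26 to -0.12, adjusted p = 0.0564). Among all 261 miRNAs tested, 37.9% were called between Balb/C and FVB, 32.2% as lower, and 39.5% between FVB129B6 and FVB, 31.4% as lower, and the medians of all tested were -0.48 and -0.39. Relative to those medians miR-143 differed by -0.099 and -0.23 and miR-145 by -0.18 and -0.30, so most of each difference from FVB was shared by the typical miRNA.

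Balb/C and FVB129B6 were close for both. The log2 difference of Balb/C minus FVB129B6 was 0.041 for miR-143 (SE 0.21, 95% interval -0.44 to 0.52, limma adjusted p = 0.949) and 0.027 for miR-145 (SE 0.22, -0.48 to 0.54, adjusted p = 0.966). In that comparison 3.45% of the miRNAs tested were called. These intervals do not show that the 2 strains were alike.

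The comparisons with FVB depended on how arrays were scaled, on the filter and fit, and on 1 FVB array. With no filter on dim miRNAs or an intensity trend in limma, miR-145 passed in both comparisons and miR-143 in FVB129B6 minus FVB, and with a filter on every array both passed in FVB129B6 minus FVB (adjusted p = 0.0379 to 0.0499), with the differences themselves unchanged. Without normalization both miRNAs were higher than in FVB, miR-143 by 0.77 and 0.79 and miR-145 by 0.69 and 0.72 in Balb/C and FVB129B6 (limma adjusted p = 0.0145 to 0.0395), while the medians of all tested were 0.87 and 1.02. With quantile normalization or normexp, both miRNAs lay above the median of all tested in both comparisons, and neither was called. Without FVB replicate 1, all 4 differences passed the limma test, at -0.88 and -0.93 for miR-143 and -1.01 and -1.03 for miR-145 (adjusted p = 0.0163 to 0.0258), with the remaining FVB array assumed to vary like the other groups. Without FVB replicate 2 the same 4 differences ran from -0.35 to -0.28.

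**Figure D3:**
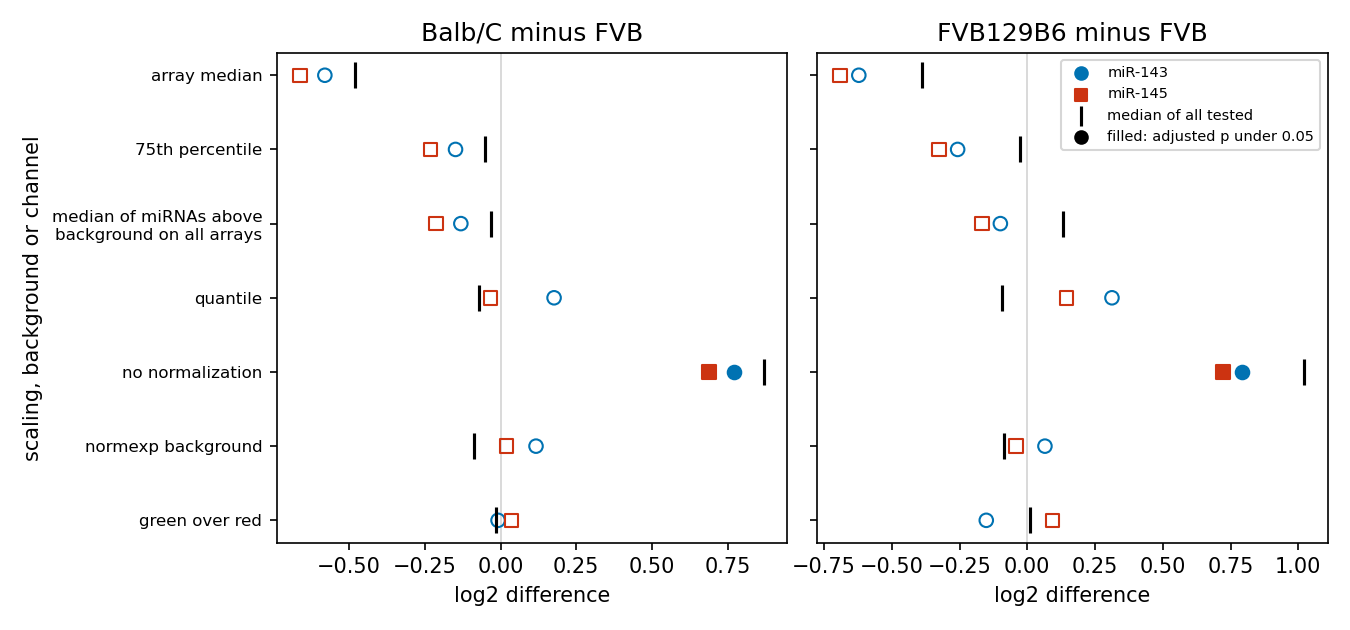
Log2 difference of miR-143 (circles) and miR-145 (squares) for Balb/C minus FVB (left) and FVB129B6 minus FVB (right) under 7 settings of scaling, background correction or channel. Black ticks are the medians of all miRNAs tested, and filled symbols mark a limma adjusted p under 0.05. With the array median both miRNAs sit between -0.69 and -0.58, and with no normalization between 0.69 and 0.79, in each case on the same side of 0 as the tick.

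The second comparison set tumors against glands. Both miRNAs were lower in tumors in every setting in which they could be tested, all of which used the green signal. In the red channel alone, given below, the tumor levels of miR-145 overlapped those of the glands. With the array median, miR-143 was at least 121-fold lower in the tumors than the mean of the 3 strain means. For this each tumor array was set to the lowest level well above background on it. The limma adjusted p of 2.92e-11 is for the measured means of 0.080 and 8.72, the former not told from background. Against the FVB glands, the strain of the tumors, miR-143 was at least 160-fold lower (limma adjusted p = 3.03e-10, again for the measured means). miR-145 was lower by a log2 difference of -4.85 (SE 0.25, 95% interval -5.40 to -4.30, limma adjusted p = 1.32e-08), or 28.8-fold, and against FVB alone by -5.30 (SE 0.33, -6.04 to -4.56, adjusted p = 1.09e-07), or 39.4-fold. Of all miRNAs tested, 90.4% were called between tumors and the strain mean, 52.5% as lower, and 88.1% between tumors and FVB, again 52.5% as lower. A call alone thus says little here. miR-143 passed the filter on dim miRNAs through the gland arrays alone, so its p-values set bright gland signals against signals not told from background. With no filter, 173 of 334 miRNAs were called higher and 138 lower than the strain mean, with a median of 0.67. By fitted difference miR-143 was the first from the lowest end of 261 against the strain mean and miR-145 was in place 32, while the median of all tested was -0.83. The fitted place of miR-143 rests on a level under its detection limit, as it does for the 268 of 334 miRNAs well above background on no tumor array. That place thus follows largely from how bright miR-143 was on the gland arrays.

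The size of these folds depended on the scaling, while the direction did not. Only 38, 15 and 64 of 334 miRNAs were well above background on the tumor arrays, so their array median was itself not told from background. With arrays scaled to the 75th percentile in place of the median, miR-143 was at least 15.4-fold lower than the strain mean and miR-145 3.66-fold lower, and with quantile normalization at least 15.5-fold and 1.88-fold. With no normalization they were at least 343-fold and 81.6-fold lower. The median of all miRNAs tested moved with the scaling, from -2.34 without normalization to 2.14 at the 75th percentile.

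The difference between the 2 log2 signals, miR-143 minus miR-145, was the steadiest measure across the glands. It was 0.79 and 0.71 in FVB, 0.85, 0.83 and 0.83 in Balb/C, and 0.93, 0.74 and 0.80 in FVB129B6. FVB129B6 overlapped with both other strains, and the 3 Balb/C values lay just above those of FVB. Over the 8 glands the SD of the difference was 0.068, against 0.35 and 0.39 for the levels themselves, so the 2 miRNAs moved together from array to array. A difference within an array is free of any constant that scales the whole array.

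In the green channel no strain difference in the ratio of miR-143 to miR-145 passed a test. Group means were 0.75 ± 0.056 (SD, n = 2), 0.84 ± 0.011 (SD, n = 3) and 0.82 ± 0.10 (SD, n = 3) on the log2 scale for FVB, Balb/C and FVB129B6. Over the 3 strains the means spanned 0.082 (exact permutation test, 560 relabelings, p = 0.468). The pairwise differences were 0.082 for Balb/C minus FVB (exact two-sided permutation p = 0.1), 0.069 for FVB129B6 minus FVB (exact p = 0.4) and 0.014 for Balb/C minus FVB129B6 (exact p = 0.8), and none of these pairwise tests could give less than 0.1. Adjusted over the 5 tests of the ratio, the tumor test included, these 4 exact permutation p-values are 0.585, 0.25, 0.585 and 0.8. With green over red in place of green, the range over the strains was 0.24 (exact permutation p = 0.0107), and the differences from FVB were -0.045 for Balb/C and -0.24 for FVB129B6.

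In the tumors the order of the 2 signals turned. The measured differences were -3.11, -2.27 and -3.57, and since miR-143 was not well above background there, they are given only as values. With miR-143 placed at the detection limit of each array, as for the fold, the differences were -0.96, -0.40 and -2.44, which are upper bounds. Even these lay below every gland value. Their mean minus that of the 8 glands was -2.08 on the log2 scale, so the ratio of miR-143 to miR-145 was at least 4.23-fold lower in tumors (exact two-sided permutation test, p = 0.00606, the smallest that 165 relabelings can give, 0.0303 adjusted over 5 tests, a test chosen after the data were seen). The bound was 8.40-fold with quantile normalization and 2.26-fold with the normexp background correction, with the same exact permutation p. The ratio shows that the 2 signals did not change alike, and the dim tumor signals of miR-145 carry it.

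**Figure D4:**
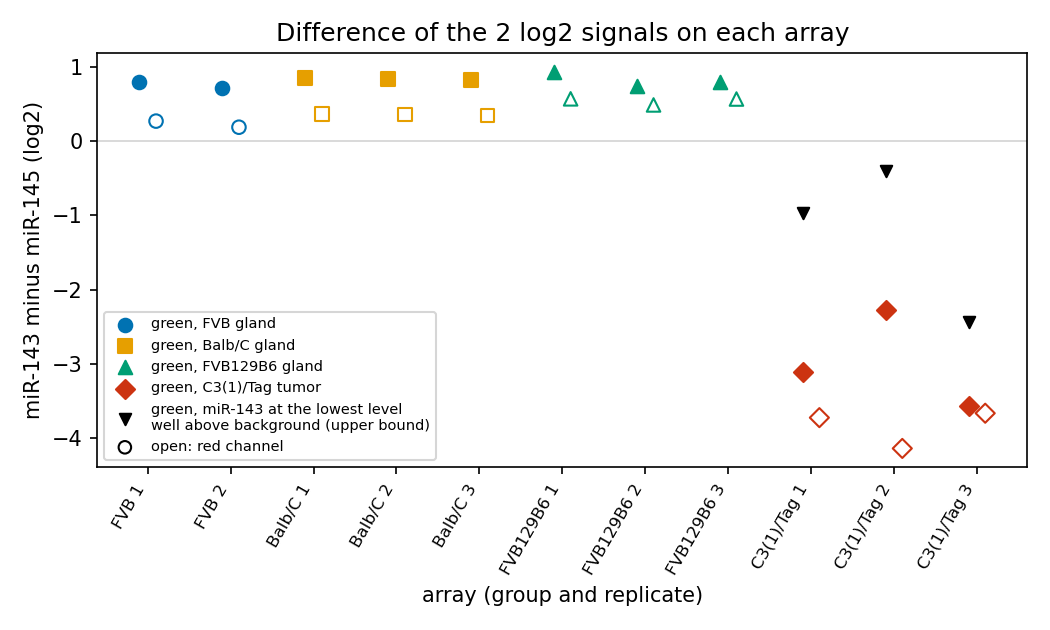
Difference of the log2 signals, miR-143 minus miR-145, on each of the 11 arrays. Filled symbols are the green channel, open symbols the red channel, and black triangles the upper bound with miR-143 at the lowest level well above background. In green the 8 glands sit between 0.71 and 0.93 and the bounds of the 3 tumors between -2.44 and -0.40.

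Over the 8 gland arrays the miRNA most like miR-143 in level was miR-145, and the reverse. Their Pearson correlation was 0.988 and Spearman's rho 0.976 over 8 arrays, given as a description, as all miRNAs of an array share its labelling and scaling. Across the 203 other miRNAs well above background on all 8 glands, the median correlation was 0.60 with miR-143 and 0.61 with miR-145, and the partner came first of 203 in both orders. Without FVB replicate 2 and Balb/C replicate 2, the arrays farthest from the median of miR-143, the correlation over the remaining 6 was 0.926. With strain means removed it was 0.968, and the partner was then in place 10 for miR-143 and place 6 for miR-145. The partner also came first with scaling to the 75th percentile or to the median of the miRNAs detected on every array, with normexp and with no normalization, but in places 9 and 13 with quantile normalization, where the correlation was 0.703.

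**Figure D5:**
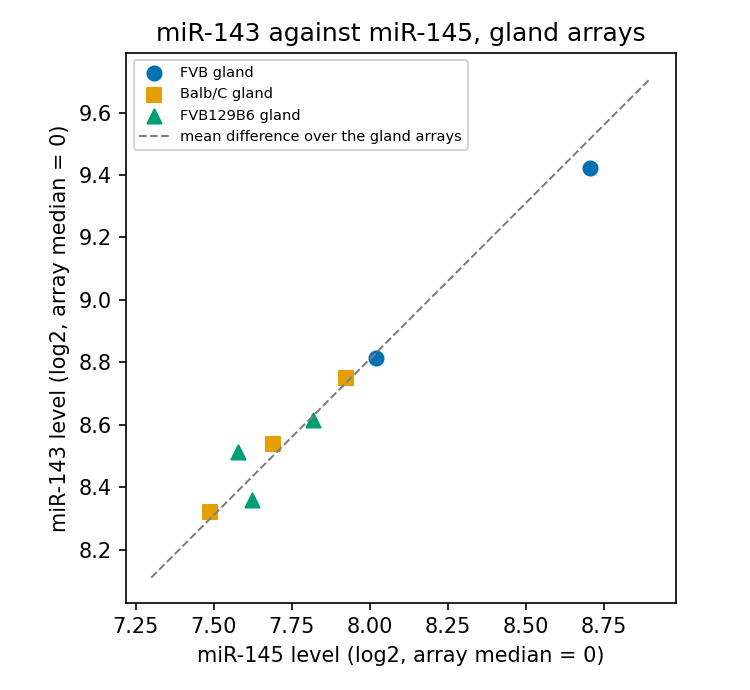
Level of miR-143 against that of miR-145 on the 8 gland arrays, both in log2 with the array median at 0, on equal axes and with symbols by strain. The dashed line has the slope of equal change and passes at the mean difference of 0.81. Every array lies near the line, with FVB replicate 2 at the upper right.

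The next most alike to miR-143 were miR-222 (Pearson r = 0.966), let-7i (0.960), let-7e (0.958) and miR-31 (0.954), and to miR-145 miR-703 (0.972), miR-222 (0.971), let-7e (0.970) and miR-183 (0.969). Their mature sequences are shown to tell these miRNAs apart, and among them only let-7i and let-7e share a seed. All 6 were found in the RefSeq miRNA table (GRCm38.p6), by the arm that matches the array probe, and are written 5′ to 3′ with the seed, bases 2 to 8, in capitals.
mmu-miR-222-3p: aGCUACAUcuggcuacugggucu
mmu-let-7i-5p: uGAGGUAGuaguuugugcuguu
mmu-let-7e-5p: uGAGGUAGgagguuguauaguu
mmu-miR-31-5p: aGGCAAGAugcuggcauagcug
mmu-miR-703: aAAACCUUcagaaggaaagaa
mmu-miR-183-5p: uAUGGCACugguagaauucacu

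The probes of the pair are 15 base edits apart. The nearest other probe to that of miR-143 was miR-18, at 9 edits, followed by let-7c and let-7i at 10, and the nearest to that of miR-145 were miR-199a, miR-409 and miR-684, at 10. On the tumor arrays miR-222, let-7i, let-7e and miR-31 were each well above background on 2 of 3 arrays, and miR-183 and miR-703 on none. Of the 6, 4 were thus seen on tumor arrays on which miR-143 was not, while 268 of all 334 miRNAs were seen on no tumor array.

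Lists of miRNAs used as markers of cell types were read beside the pair. Of the mesenchymal and smooth muscle list, to whose cells miR-143 and miR-145 are ascribed, 10 members were on the array. In tumors 9 of these 10 were called lower than the strain mean, against 52.5% of all tested, and 1 was not called. The median difference of the list was -4.21 against -0.83 over all tested. Members of this list included the neighbors miR-199a (-4.07, SE 0.30, limma adjusted p = 2.16e-07), well above background on 1 tumor array, and miR-214 (fitted -2.24), on none. The gland means of miR-214, 2.00 to 2.37, were close to the tumor detection limits of 1.23 to 2.13, so -2.24 is not a measured fall. Of the 10, 7 were well above background on no tumor array, as were 268 of all 334 miRNAs. These 7 passed the filter through the gland arrays alone, so the calls and median of the list rest largely on levels under the detection limit. The summed level of the list was 8.22 to 8.75 over the glands and 3.85 to 5.34 over the tumors. miR-143 and the list were thus low on the same 3 arrays, as were most of the luminal miRNAs given below. Under the other scalings 6 to 10 of the 10 were called lower, against 70 to 173 of all 261 tested. At the 75th percentile 2 were called higher, against 172 of 261. With the median of the miRNAs detected on every array 1 was, against 161. The list median was as small as -1.24, at the 75th percentile. The part of stromal content in the tumor difference of the pair was not tested.

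The 3 miRNAs of the basal and myoepithelial list took another course, closer to that of miR-145 in detection. miR-205 and miR-221 were well above background on all 3 tumor arrays and miR-222 on 2. With the array median miR-205 was lower in tumors by -3.32 on the log2 scale (limma adjusted p = 3.52e-07), while miR-221 and miR-222 were higher by 1.09 and 1.41 (adjusted p = 0.00344 and 0.00267). The direction of these depended on the scaling: without normalization miR-221 and miR-222 differed by -0.41 and -0.090, and with quantile normalization miR-205 differed by 0.37, none of them called. The summed level of the list was 5.85 to 6.83 over the glands and 4.74 to 6.09 over the tumors. Of the 9 luminal epithelial miRNAs, which include the miR-200 family, 8 were lower in tumors, against 52.5% of all tested, with a median of -4.40 against -0.83. Of these 9, 5 were well above background on no tumor array, against 268 of all 334 miRNAs, so the luminal median too rests largely on levels under the detection limit.

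The other lists were read for cells that could enter a gland sample. Skeletal muscle miRNAs, miR-1, miR-206 and miR-133b, were all called higher in Balb/C and in FVB129B6 than in FVB, against 15 and 21 of all 261 tested. Their median differences were 5.32 and 4.15. All 3 were so called under every scaling tried, though without normalization 151 and 176 of all 261 were too. Their summed level was 3.64 to 6.02 in FVB, 9.17 to 9.97 in Balb/C and 8.45 to 8.62 in FVB129B6. With the array median the pair was highest in FVB, but with quantile normalization, normexp or no normalization neither miRNA was, and the part of muscle in its levels was not tested. Of the 6 blood miRNAs, 1 was lower in Balb/C and 3 in FVB129B6 than in FVB, against 32.2% and 31.4% of all tested, with summed levels of 9.66 to 9.72 in FVB, 7.93 to 9.56 in Balb/C and 7.25 to 7.76 in FVB129B6. The single endothelial miRNA on the array, miR-126-5p, was dim, at -4.13 to -1.76 over the glands, and well above background on no tumor array.

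Between strains the mesenchymal list did not move as a whole. In Balb/C minus FVB 1 of its 10 members was higher, miR-218 (0.81, limma adjusted p = 0.0473), and 2 were lower, miR-152 (-1.11, adjusted p = 0.00543) and miR-10b (-0.60, adjusted p = 0.0257). Of all miRNAs tested 37.9% were called there, a share near that of the list. The median of the list was -0.14 there and -0.22 in FVB129B6 minus FVB. In the latter limma called 0 members, against 39.5% of all tested, and 0 had an unadjusted p under 0.05. Without normalization 8 and 9 of the 10 were called higher than in FVB, as were miR-143 and miR-145 and 151 and 176 of all 261 miRNAs tested. The differences of miR-143 and miR-145 from FVB, -0.69 to -0.58, were below both of these medians.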

How the data were processed

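Scans of 8 glands and 3 tumors were used. For each array the authors deposited spot intensities from the Feature Extraction program (9.5.1.1 for tumors, 10.5.1.1 for glands, per the file headers), which corrects for background and balances the dyes before output and marks spots of poor quality. Their series table holds log2 values of the same deposited spots, shifted by a constant for each array, and was an alternative. Probe names are those of the array design, and a genome build is not given in the sources used here.

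Levels are log2 green intensities minus the array median over the mouse spots; outlier spots were left out and the 4 spots of a miRNA averaged. A miRNA was tested when at least 50% of its spots were well above background on at least 3 arrays of the fit, which 261 passed. Strains were compared in a limma fit of the 8 glands and tumors in a fit of all 11 arrays, with Benjamini-Hochberg adjustment over all miRNAs tested and a threshold of 0.05. The methods of the study name median normalization and no test for strains. Ratios were compared by exact permutation over arrays. An array's detection limit is its lowest level well above background. Where no array of the dim group was well above background, levels of the pair under that limit were raised to it. The fold is then a bound that holds for this limit, which is not strict, since signals above it can go uncalled. Differences of list members are as fitted. Precision is limited by how few arrays each group has. The scaling alternatives for the tumor ratio and for the lists were added after seeing the data.

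Named miRNAs were the pair, the 5 most correlated with each over the glands, and the cell type lists with the members called between strains. miR-199a*, miR-126-3p, miR-133a and miR-142-3p of those lists were not matched by name. miR-199a, miR-214 and the basal list were named for their values in tumors after these were seen. The pair, the lists and the alternatives were chosen with earlier results of these data known. The 17 alternatives comprise scalings, background correction, the red channel as a divisor, filters, spots, the fit, the replicate block and arrays left out. The replicate numbers do not pair the arrays: deviations from the strain means correlated at 0.039 on average for the 7 pairs of like number and at -0.019 for the other 14 pairs. The fit was tested on simulated data. Fits were made with limma 3.58.1 under R 4.3.3. Files were read with pandas 2.3.3 and numpy 2.4.6, and plots drawn with matplotlib 3.10.9, under Python 3.11.15.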

Additional observations from a re-analysis of the deposited data

Results flagged for a closer look

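The red channel of the arrays was not used for the levels above, and both miRNAs gave signal in it on the tumor arrays. In red, 8 of 12 tumor spots of miR-143 and 12 of 12 of miR-145 were well above background, as were 32 of 32 gland spots of each. The labels name only Hy3, while the methods of the study name Hy3 and/or Hy5. Which RNA, if any, the red channel holds is not stated in the sources used here. The red level of miR-145 ran from 6.003 to 7.05 in tumors and from 6.32 to 6.87 in glands, whereas that of miR-143 ran from 1.87 to 3.39 in tumors and from 6.81 to 7.09 in glands, in log2 against the red array median. In red the tumor levels of miR-145 thus overlapped those of the glands, unlike in green, and only miR-143 was lower on all tumor arrays. The red difference of miR-143 minus miR-145 was 0.19 to 0.57 in glands and -4.14 to -3.66 in tumors, so the difference moved in the same direction as in green.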

How the results depend on the processing

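Both tumor comparisons kept their direction and their call in every alternative that gave a value. Leaving out 1 array at a time, the bound of miR-143 ran from -7.09 to -6.64 against the strain mean and from -7.63 to -7.02 against FVB, and the difference of miR-145 from -5.15 to -4.58 and from -5.64 to -4.96. Green over red gave no bound for miR-143, and a filter on every array left miR-143 out of the tumor fit. Of the strain differences (limma adjusted p in parentheses), miR-143 in Balb/C minus FVB was 0.18 with quantile normalization, 0.77 (0.0186) without normalization and 0.12 with normexp, and in FVB129B6 minus FVB 0.31, 0.79 (0.0145) and 0.065. miR-145 in Balb/C minus FVB was 0.69 (0.0395) without normalization, 0.020 with normexp and 0.037 for green over red, and in FVB129B6 minus FVB 0.14 with quantile normalization, 0.72 (0.0301) without normalization and 0.093 for green over red. With values unchanged, miR-145 in Balb/C minus FVB passed the threshold at -0.66 with no filter (0.048) and with an intensity trend (0.0462). Under a filter on every array, no filter and a trend, FVB129B6 minus FVB passed for miR-143 at -0.62 (0.0499, 0.0478 and 0.0424) and for miR-145 at -0.69 (0.0426, 0.0403 and 0.0379). Balb/C minus FVB129B6 turned to -0.032, -0.14 and -0.019 for miR-143 and to -0.046, -0.18 and -0.033 for miR-145 with the median of the miRNAs detected on every array, quantile and no normalization, and to -0.056 for miR-145 with green over red, none called. Leaving out 1 array at a time, Balb/C minus FVB ran from -0.88 to -0.28 for miR-143 and from -1.01 to -0.32 for miR-145, FVB129B6 minus FVB from -0.93 to -0.32 and from -1.03 to -0.35, and Balb/C minus FVB129B6 from -0.066 to 0.15 and from -0.084 to 0.13. The ratio of the pair turned to -0.045 in Balb/C minus FVB and to -0.24 in FVB129B6 minus FVB with green over red, where its range over the 3 strains was 0.24 (exact permutation p = 0.0107), and to -0.0094 in Balb/C minus FVB129B6 with normexp. With 1 array left out the ratio ran from 0.042 to 0.12, from 0.013 to 0.11 and from -0.029 to 0.069 for these 3 pairs, and its range over the strains from 0.042 to 0.12. The cause of these turns was not tested.

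The number of miRNAs called was 99 in Balb/C minus FVB (47 to 178 over the alternatives), 103 in FVB129B6 minus FVB (39 to 191), 236 against the strain mean (13 to 311) and 230 against FVB (12 to 305), the lowest tumor counts coming from a filter that left 15 miRNAs. In Balb/C minus FVB129B6 it was 9 and at most 17, and limma called 0 with normexp (50 at an unadjusted p under 0.05) and with a filter on every array (32). It was also 0 without FVB129B6 replicate 2, Balb/C replicate 2 or FVB replicate 2 (41, 36 and 65 unadjusted). Without FVB129B6 replicate 1 it was 1, without FVB129B6 replicate 3 it was 3, without FVB replicate 1 it was 5 and without Balb/C replicate 1 it was 16. With the 75th percentile 172 miRNAs were called higher and 70 lower in tumors than the strain mean, against 99 and 137 with the median, and without normalization 151 were called in Balb/C minus FVB, all with Balb/C higher, against 15 higher and 84 lower. The replicate block left the pair's strain calls as they were and moved the count of Balb/C minus FVB129B6 to 14. The low signal of the tumor arrays limits miR-143 there to a bound.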
